A study of Homo sapiens with 10 samples.

Results

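The genes described here encode the proteasome of human multiple myeloma cells: 48 genes for its subunits, activators, assembly factors and 1 inhibitor, out of 58229 genes in the deposited table. They were found by the Ensembl gene identifier of each symbol, and all 48 were present. The proteasome is the protease that degrades ubiquitin-tagged proteins in the cytosol and nucleus. Its 20S core is a barrel of outer alpha rings and inner beta rings, and the beta rings hold the catalytic subunits. The 19S cap binds ubiquitin chains, unfolds the substrate with a ring of ATPases and feeds it into the core. In immune cells, and in other cells given interferon gamma, the catalytic subunits PSMB5, PSMB6 and PSMB7 can be exchanged for PSMB8, PSMB9 and PSMB10, which give the immunoproteasome and alter the peptides offered to MHC class I. Plasma cells and myeloma cells secrete large amounts of immunoglobulin and depend on this machine, which proteasome inhibitors used in myeloma block at PSMB5.

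Poly(A) RNA was measured in 2 myeloma lines, of which the labels call 1 OCI and the other H929. Per line there was 1 library of wild-type cells treated with AIMP1 protein, 1 of cells that overexpressed AIMP1, 2 of AIMP1 knockdown cells and 1 of wild-type cells, which makes 10 libraries. AIMP1 belongs to the complex of aminoacyl-tRNA synthetases, where it serves as a scaffold, and it can also be secreted. The labels give neither the dose and time of the protein nor the vectors and clones, nor do they say whether libraries came from separate cultures. With 1 library in most groups, p-values measure a spread made of unlike changes in the 2 lines and of differences between the knockdown libraries. That spread is not one between replicates of 1 condition, and part of it may be technical.

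Values are FPKM, fragments scaled by transcript length and library total, and differences are on the log2(FPKM + 1) scale, given with their SE. AIMP1 itself had 14.4, 59.7, 5.03, 2.35 and 14.3 FPKM in OCI protein, overexpression, knockdown 1, knockdown 2 and wild-type cells, and 20.3, 62.5, 14.2, 3.55 and 14.5 FPKM in the same H929 groups. In the library labelled H929 AIMP1 knockdown 1 it was at 98.2% of wild type, which goes against the label, and in the other 3 knockdown libraries at 16.4% to 35.1%. Where 5 values per line are listed, knockdown 1 of H929 is the library so labelled. FPKM sums ran from 3437320 to 10598200, highest in H929 protein, and relative depth from 27.4% to 100% of the OCI wild-type library. All 8 plasma cell markers reached 1 FPKM in OCI, and all but SLAMF7 in H929, where SLAMF7 lay at 0.180 to 0.990 FPKM. Their sum was 1550 to 2537 FPKM in protein, 1621 to 2467 in overexpression, 1534 to 2476 in knockdown and 1486 to 2013 in wild-type libraries. The 4 adipose markers, looked at because the extract protocol speaks of adipose material, summed to at most 0.362 FPKM. T and NK cell markers summed to at most 19.3 FPKM, in the library labelled H929 AIMP1 knockdown 1, where GNLY was at 18.1 FPKM, and myeloid markers to at most 9.04 FPKM, in a protein library. All 48 members had a mean of at least 1 FPKM and entered the test with 12872 genes in all, and 0 of them were listed at 0 in any library.

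Promoters of 5 members named below are printed to show which known regulatory words lie at their starts. RefSeq (GRCh38.p14) gave 52 windows of 300 bases, 250 before and 50 after a start, for 42 of the 48 members. PSMA7, PSMB1, PSMB6, PSMB7, PSMD4 and PSMG3 had no entry. Both strands were searched for TGACNNNGC, the core of the antioxidant response element that NFE2L1 binds when it raises proteasome genes, and for GAAA followed after any 2 bases by GAAA, the core of the interferon-stimulated response element bound by interferon regulatory factors. The first of these words also overlaps with AP-1 sites, since both can begin with TGAC. Matches are in capitals, and each sequence runs 5′ to 3′ on the strand of its gene. PSMB9 lies at chr6:32853942-32854241 (plus strand), PSMB10 at chr16:67936801-67937100 (minus strand), PSME1 at chr14:24135944-24136243 (plus strand), PSMD1 at chr2:231056617-231056916 (plus strand) and PSMG1 at chr21:39183402-39183701 (minus strand).
PSMB9: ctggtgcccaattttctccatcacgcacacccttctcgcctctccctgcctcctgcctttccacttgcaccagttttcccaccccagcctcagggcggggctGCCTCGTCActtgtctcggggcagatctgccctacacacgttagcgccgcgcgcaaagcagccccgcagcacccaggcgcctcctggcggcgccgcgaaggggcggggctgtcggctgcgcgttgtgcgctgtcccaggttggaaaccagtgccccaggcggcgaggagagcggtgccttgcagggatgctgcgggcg
PSMB10: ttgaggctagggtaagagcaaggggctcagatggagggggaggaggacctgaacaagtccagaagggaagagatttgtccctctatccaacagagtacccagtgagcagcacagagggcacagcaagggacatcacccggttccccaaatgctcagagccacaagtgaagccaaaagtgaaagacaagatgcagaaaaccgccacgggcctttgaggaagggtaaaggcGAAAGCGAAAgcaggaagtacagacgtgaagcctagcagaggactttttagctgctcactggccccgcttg
PSME1: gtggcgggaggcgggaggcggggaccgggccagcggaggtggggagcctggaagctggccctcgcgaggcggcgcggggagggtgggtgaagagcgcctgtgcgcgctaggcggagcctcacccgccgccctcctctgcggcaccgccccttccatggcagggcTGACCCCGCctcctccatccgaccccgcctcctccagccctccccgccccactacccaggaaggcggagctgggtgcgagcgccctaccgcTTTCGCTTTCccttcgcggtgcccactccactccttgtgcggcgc
PSMD1: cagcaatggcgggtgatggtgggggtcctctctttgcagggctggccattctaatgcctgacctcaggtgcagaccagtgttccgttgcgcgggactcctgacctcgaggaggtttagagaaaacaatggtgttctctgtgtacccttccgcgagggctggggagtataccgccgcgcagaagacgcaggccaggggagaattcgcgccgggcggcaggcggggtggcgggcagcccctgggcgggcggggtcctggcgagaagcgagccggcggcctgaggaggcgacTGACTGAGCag
PSMG1: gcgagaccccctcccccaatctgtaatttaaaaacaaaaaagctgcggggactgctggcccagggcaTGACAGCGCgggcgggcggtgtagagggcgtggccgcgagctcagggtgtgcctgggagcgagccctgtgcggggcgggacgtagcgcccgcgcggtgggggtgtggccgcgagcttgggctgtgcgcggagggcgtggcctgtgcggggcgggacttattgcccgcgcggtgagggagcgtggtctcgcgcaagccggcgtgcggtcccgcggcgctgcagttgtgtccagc

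The antioxidant core was found in 17 of the 52 members' windows, from 16 genes, which is 32.7% against 13.3% of all 35116 windows. It lay in 8 of the 27 core and cap genes with a window, PSMD1, PSMD3, PSMD12, PSMC4, PSMC5, ADRM1, PSMA4 and PSMB3. It lay in 1 of the 3 immunoproteasome genes, PSMB9, and outside both groups in PSMD5, PSMD9, PSMG1, PSMG2, PSME1, PSME2 and PSME4. The interferon core was found in 7 windows, 13.5% against 3.57% of all windows. Those windows belong to PSMB8, PSMB10, PSME1, PSME2, PSMA4, PSMB4 and PSMG4. Each printed window holds an antioxidant or interferon core, but those of PSMC2, PSMD7, PSMD6, PSMA3 and PSME3, also named below, hold neither. A further word, CCAAT, stood in 21 windows, 40.4% against 34.6% of all. These matches describe letters only and were not set against any measured binding.

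Proteasome mRNAs spanned a wide range of levels, as FPKM values per length. The beta ring genes PSMB4 and PSMB3 were highest, at 543 ± 88.8 and 496 ± 92.7 FPKM (SD, n = 10 libraries). Their ranges over the libraries overlapped, at 425 to 684 and 294 to 593 FPKM. Differences between genes were not tested, and the SD spans both lines and all manipulations. PSMA4, an alpha ring gene, came next at 257 ± 33.8 FPKM, and PSMB1 after it at 238 ± 48.7 FPKM, with ranges that also overlapped. At the low end stood PSMD10 at 17.8 ± 2.34 FPKM, PSMD5 at 11.1 ± 11.5 FPKM and PSME4 at 9.53 ± 2.71 FPKM. PSMD10 and PSMD5 encode chaperones that help the cap assemble, and PSME4 encodes the activator PA200. By line, the 14 constitutive core genes had a median of 154 FPKM in OCI and 174 FPKM in H929, and the 18 cap genes 89.9 FPKM in OCI and 108 FPKM in H929. The 3 immunoproteasome genes had a median of 143 FPKM in OCI and 115 FPKM in H929. In bulk libraries, fewer cells of a type and less RNA per cell cannot be told apart. The least variable member was PSMA4, whose highest library was 1.51 times its lowest, and the most variable were PSMD5 at 8.52 times, PSMD1 at 5.85 times and PSMB9 at 3.99 times.

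**Figure D1:**
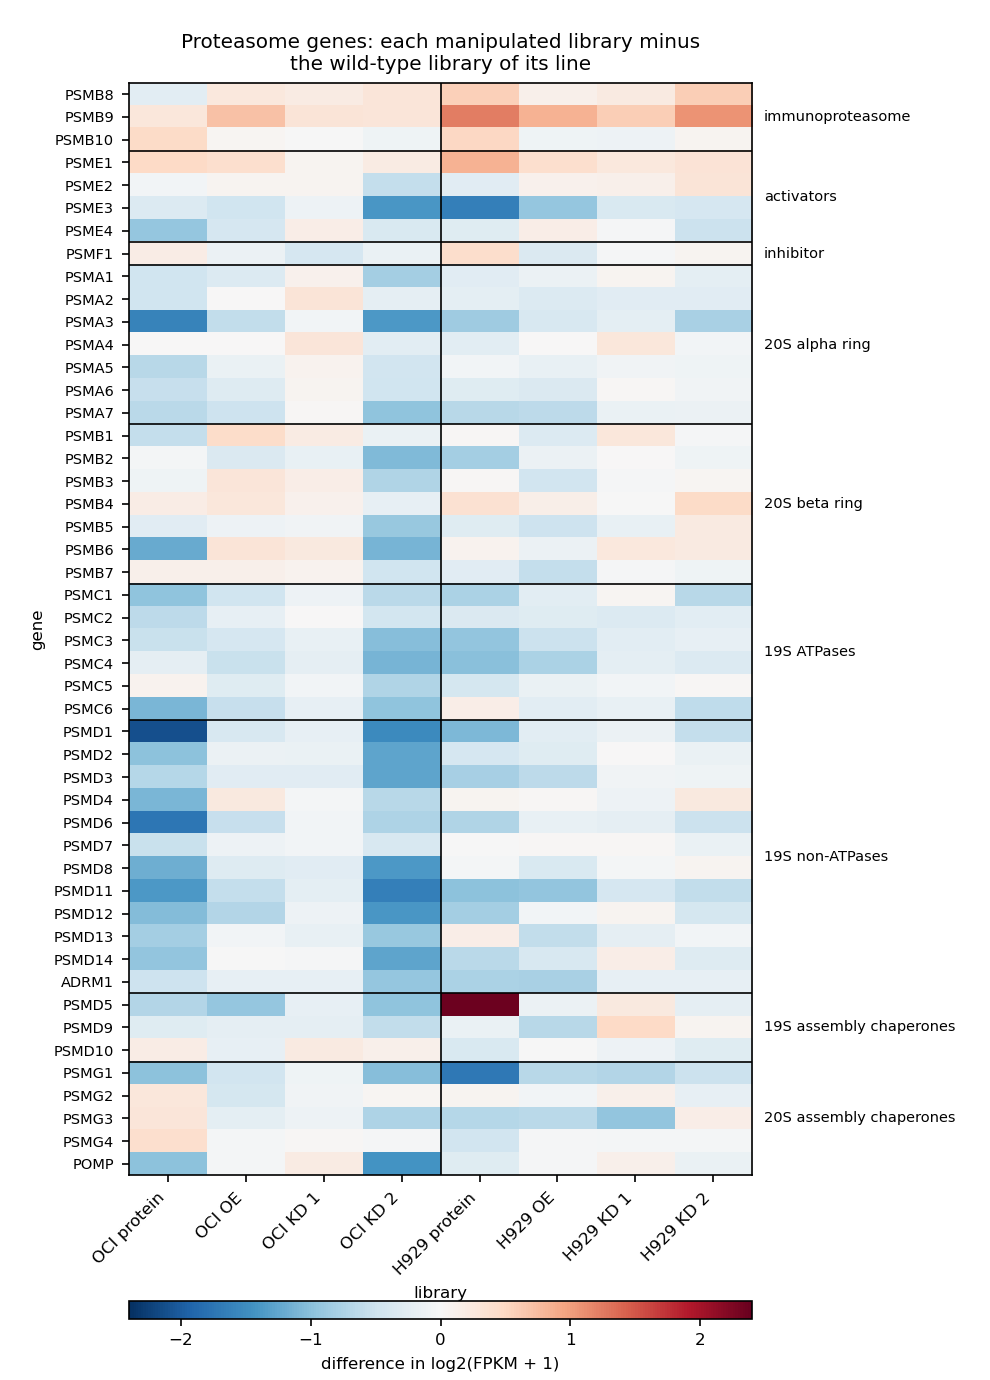
Difference in log2(FPKM + 1) of each of the 48 genes (rows, grouped by role) between each manipulated library (columns; OE, overexpression; KD, knockdown) and the wild-type library of its line, red for higher and blue for lower than wild type. Cap genes are mostly blue, most strongly in OCI protein and OCI KD 2, PSMB9 and PSME1 are red in all 8 columns, and PSMD5 in H929 protein is the highest single value.

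Between OCI and H929 cells 3 of 48 members were called, beside 12.9% of all tested genes, and not every alternative kept these calls. The immunoproteasome gene PSMB9 was higher in OCI, and the cap genes PSMC2 and PSMD7 were lower. PSMB9, which encodes the inducible counterpart of PSMB6, stood at 163 FPKM in protein-treated, 221 in overexpressing, 168 in knockdown 1, 164 in knockdown 2 and 135 FPKM in wild-type OCI cells. In H929 the same gene stood at 131 FPKM in protein-treated, 98.8 in overexpressing, 83.6 in the library labelled knockdown 1, 117 in knockdown 2 and 55.3 FPKM in wild-type H929 cells. Each OCI library lay above each H929 library, and the change was 0.84 ± 0.18 (SE, limma adjusted p = 0.0158). PSMC2, an ATPase of the cap, had 70.3, 94.6, 109, 79.7 and 109 FPKM in OCI protein, overexpression, knockdown 1, knockdown 2 and wild-type cells, and 125, 130.3, 127, 133 and 159.5 FPKM in the same H929 groups. Its OCI values all lay below its H929 values, with a change of -0.56 ± 0.15 (SE, limma adjusted p = 0.0402). PSMD7, a non-ATPase subunit of the cap lid that pairs with the deubiquitinase PSMD14, had 64.1, 85.7, 89.7, 71.6 and 93.7 FPKM in OCI protein, overexpression, knockdown 1, knockdown 2 and wild-type cells, and 118, 120.2, 120.1, 106 and 118 FPKM in the same H929 groups. Again the lines did not overlap, and the change was -0.54 ± 0.15 (SE, limma adjusted p = 0.0455). Of the 3 members called between the lines, 1 was higher, beside 7.6% of all tested genes, and 2 lower, beside 5.28%. Of all tested genes 6.22% had all OCI libraries above all H929 libraries, as 1 member did, and 5.75% all below, as 2 members did. Manipulation by manipulation, 7 members were higher in OCI throughout, beside 19.6% of all genes, and 12 were lower, beside 18.7%. At an unadjusted p under 0.05 limma gave 4 members as higher, beside 15.8%, and 6 as lower, beside 13.6%. These were 2 and 15 after quantile normalization and 3 and 13 without OCI knockdown 1, and 3 to 6 and 3 to 7 when any other single library was left out.

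**Figure D2:**
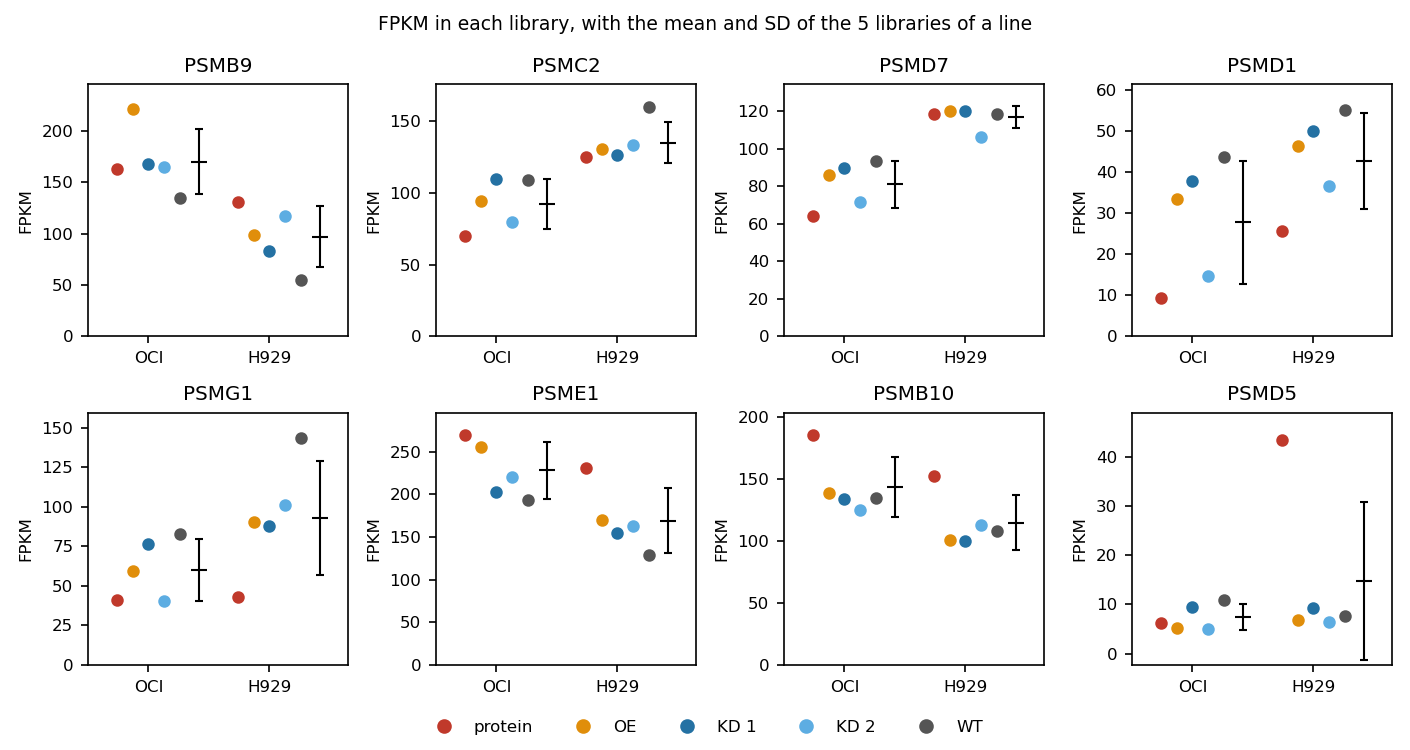
FPKM (y axis) of 8 proteasome genes in each library of OCI (left) and H929 (right), coloured by manipulation, with the mean and SD of the 5 libraries of each line in black (OE, overexpression; KD, knockdown). PSMB9 is higher and PSMC2 and PSMD7 are lower in all OCI libraries than in all H929 libraries, while PSMD1 and PSMG1 overlap between the lines.

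PSMB9 lost its call without the overexpression or wild-type library of either line, or without the library labelled H929 knockdown 1, with adjusted p between 0.0554 and 0.0750 in these 5 fits. PSMC2 and PSMD7 lost theirs without any single library other than OCI knockdown 1, at adjusted p of 0.0508 to 0.118 for PSMC2 and 0.0566 to 0.118 for PSMD7. With all 10 libraries kept, PSMC2 and PSMD7 also lost their calls with no filter, after median centring and without a variance trend. There limma adjusted p was 0.0503 to 0.0649 for PSMC2 and 0.0536 to 0.0717 for PSMD7. With 8 group means 0 of these 3 members were called. Other members kept 1 sign between the lines in all 4 manipulations, with the knockdown libraries averaged, and did not pass the test. PSMC5, another cap ATPase, had 168, 129, 152, 96.1 and 159 FPKM in OCI protein, overexpression, knockdown 1, knockdown 2 and wild-type cells, and 76.0, 91.1, 97.2, 104 and 102 FPKM in the same H929 groups. Its change was 0.56 ± 0.19 (SE, limma adjusted p = 0.0834), the opposite sign to PSMC2, and without OCI knockdown 2 it was 0.70 with adjusted p = 0.0189. PSME1 had a change of 0.44 ± 0.14 (SE, limma adjusted p = 0.0646), and PSMB10 of 0.32 ± 0.14 (SE, limma adjusted p = 0.146), both with higher values in OCI. PSMB8, the third immunoproteasome gene, was at -0.078 ± 0.18. Among the lower ones, PSMD1 had -0.76 ± 0.27 (SE, limma adjusted p = 0.0896), PSMG1 -0.59 ± 0.21 (SE, limma adjusted p = 0.0896), PSMD14 -0.60 ± 0.26 (SE, limma adjusted p = 0.157) and PSMC6 -0.51 ± 0.23 (SE, limma adjusted p = 0.178). PSMD14, the deubiquitinase of the lid, had 21.2, 41.3, 41.1, 16.8 and 41.8 FPKM in OCI protein, overexpression, knockdown 1, knockdown 2 and wild-type cells, and 34.6, 41.6, 61.2, 44.1 and 54.8 FPKM in the same H929 groups. The median over the 32 core and cap genes was -0.22, with 25 of 32 below 0, against a median of -0.0020 and 50.2% below 0 over all tested genes.

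In protein-treated cells, mRNAs of the core and cap were mostly lower than in wild-type cells and those of the immunoproteasome higher, but 0 members passed the test. Of all tested genes, 2 were called, which is 0.0155%. Where limma's unadjusted p was under 0.05, 8 members were lower, beside 5.79% of all genes, and 2 were higher, beside 13.2%. The members lower numbered 15 after median centring, 20 after quantile normalization and 17 without OCI knockdown 2, but 5 without H929 wild type and 3 without OCI wild type or with 8 group means. The median change of the 32 core and cap genes was -0.50, with 31 of 32 below 0, whereas over all tested genes the median was 0.14 and 41.3% were below 0. Within this group the 18 cap genes had a median of -0.66 and were all below 0, and the 14 core genes had a median of -0.36 with 13 below 0. PSMB4 was the exception among the core genes, at 0.27 ± 0.26, or -0.094 after quantile normalization. Relative to the median of all tested genes, the core and cap median was -0.64 and the immunoproteasome median 0.34. The 3 immunoproteasome genes had a median of 0.48 and fitted values above 0, though PSMB8 was below wild type in OCI protein. Set by line, the core and cap median was -0.63 in OCI protein, with 28 of 32 below wild type, and -0.32 in H929 protein, with 25 of 32 below. Of all tested genes, 46.6% lay below wild type in OCI protein and 39.4% in H929 protein. Both lines had the same sign, below wild type, for 28 of 48 members, beside 23.7% of all genes, and above it for 6, beside 36.7%. The 6 myeloid markers summed to 3.81 to 9.04 FPKM in protein libraries, against 2.22 to 3.40 FPKM in wild type, with 3 of them reaching 1 FPKM in protein libraries and MPO at 0 in both protein libraries. The 6 stromal and endothelial markers summed to 1.84 to 3.63 FPKM with protein, against 0.187 to 0.668 FPKM in wild type. Relative depth was 68.3% in OCI protein and 27.4% in H929 protein, against 100% in OCI wild type and 42.0% in H929 wild type, and the part of depth and of these markers in the result was not tested.

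**Figure D3:**
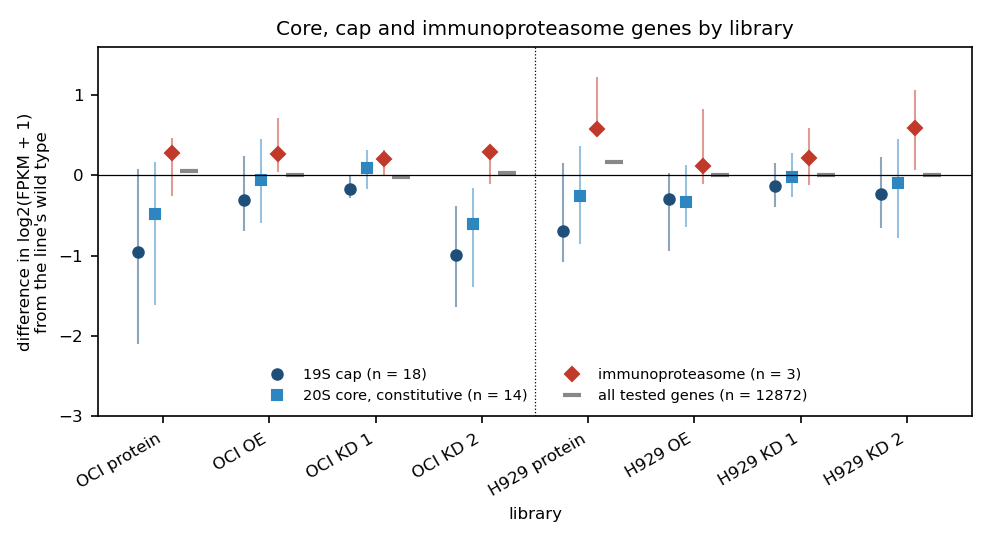
Median (symbols) and range (lines) of the difference in log2(FPKM + 1) from the line's wild type for 18 cap, 14 core and 3 immunoproteasome genes, with the median of all 12872 tested genes as grey bars, in each manipulated library (OE, overexpression; KD, knockdown). Cap medians are below 0 in all 8 libraries and reach -0.99 in OCI KD 2 and -0.96 in OCI protein, while immunoproteasome medians are above 0 in all 8.

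PSMD1, the large scaffold subunit of the cap base, stood at 9.43 FPKM in protein-treated, 33.5 in overexpressing, 38.0 in knockdown 1, 14.6 in knockdown 2 and 43.8 FPKM in wild-type OCI cells. In H929 it stood at 25.6 FPKM in protein-treated, 46.4 in overexpressing, 50.1 in the library labelled knockdown 1, 36.8 in knockdown 2 and 55.1 FPKM in wild-type H929 cells. Protein-treated cells had the lowest value of each line, 21.5% of wild type in OCI and 46.4% in H929, and the change was -1.59 ± 0.42 (SE, limma adjusted p = 0.135). PSMD6, a lid subunit, had 12.3, 29.1, 41.6, 25.6 and 43.3 FPKM in OCI protein, overexpression, knockdown 1, knockdown 2 and wild-type cells, and 19.2, 28.2, 27.8, 22.3 and 32.2 FPKM in the same H929 groups, with a change of -1.23 ± 0.34 (SE, limma adjusted p = 0.141). PSMD11, also of the lid and known in other cells to set how much assembled proteasome is formed, had 43.7, 77.2, 97.4, 36.1 and 114 FPKM in OCI protein, overexpression, knockdown 1, knockdown 2 and wild-type cells, and 71.9, 74.4, 109, 95.0 and 144 FPKM in the same H929 groups. Here OCI knockdown 2 was lower still than OCI protein, and the change with protein was -1.18 ± 0.41 (SE, limma adjusted p = 0.190). PSMD12 of the lid was also below 0 with protein, at -0.93 ± 0.40 (SE, limma adjusted p = 0.246). It is named for its unadjusted p after its values were seen, and it ranged over the libraries between 11.5 FPKM in OCI knockdown 2 and 33.7 FPKM in the library labelled H929 knockdown 1.

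The ATPases of the cap were all below 0 with protein, with a median of -0.55. PSMC1 had 58.7, 82.4, 106, 73.3 and 116 FPKM in OCI protein, overexpression, knockdown 1, knockdown 2 and wild-type cells, and 77.2, 110.4, 135, 83.0 and 132 FPKM in the same H929 groups, and its change was -0.87 ± 0.29 (SE, limma adjusted p = 0.178). PSMC3 had 118, 129, 151, 84.3 and 171 FPKM in OCI protein, overexpression, knockdown 1, knockdown 2 and wild-type cells, and 107, 144, 174, 181 and 207 FPKM in the same H929 groups, with a change of -0.74 ± 0.32 (SE, limma adjusted p = 0.246). PSMC4, which was lowest in OCI knockdown 2 and next in H929 protein, had 92.6, 74.3, 92.3, 49.3 and 107 FPKM in OCI protein, overexpression, knockdown 1, knockdown 2 and wild-type cells, and 64.8, 76.7, 111, 104 and 131 FPKM in the same H929 groups. Its change was -0.61 ± 0.36 (SE, limma adjusted p = 0.378), or -0.15 without H929 protein and -1.07 without OCI protein. PSMC6, the remaining ATPase named in other comparisons, had 16.9, 25.1, 32.4, 18.7 and 37.2 FPKM in OCI protein, overexpression, knockdown 1, knockdown 2 and wild-type cells, and 45.5, 33.9, 35.9, 26.3 and 40.7 FPKM in the same H929 groups. It was lowest of its line with protein in OCI and highest with protein in H929.

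In the core, the alpha ring gene PSMA3 stood apart. It had 31.3, 64.2, 92.5, 36.7 and 97.5 FPKM in OCI protein, overexpression, knockdown 1, knockdown 2 and wild-type cells, and 51.5, 71.9, 79.1, 54.3 and 93.8 FPKM in the same H929 groups, and its change was -1.23 ± 0.40 (SE, limma adjusted p = 0.174). OCI protein, OCI knockdown 2, H929 protein and H929 knockdown 2 held its 4 lowest values. PSMA7 had 145, 160.4, 229.8, 116 and 227 FPKM in OCI protein, overexpression, knockdown 1, knockdown 2 and wild-type cells, and 134, 136, 189, 192 and 212 FPKM in the same H929 groups, with a change of -0.65 ± 0.31 (SE, limma adjusted p = 0.291). Both protein libraries of PSMA7 lay below their wild type. PSMA6 had 129, 153, 199.8, 136 and 189.9 FPKM in OCI protein, overexpression, knockdown 1, knockdown 2 and wild-type cells, and 158, 151, 196, 182 and 193 FPKM in the same H929 groups, with a change of -0.42 ± 0.25 (SE, limma adjusted p = 0.371). PSMA5 had 27.9, 39.8, 47.5, 32.3 and 44.8 FPKM in OCI protein, overexpression, knockdown 1, knockdown 2 and wild-type cells, and 50.6, 46.9, 50.3, 49.2 and 53.1 FPKM in the same H929 groups, and its lowest library was OCI protein. PSMA2 had 108, 152, 189, 130.3 and 152 FPKM in OCI protein, overexpression, knockdown 1, knockdown 2 and wild-type cells, and 177, 164, 171, 172 and 207 FPKM in the same H929 groups, and it too was lowest in OCI protein. In the beta ring PSMB2 had 89.9, 72.5, 82.0, 44.1 and 92.6 FPKM in OCI protein, overexpression, knockdown 1, knockdown 2 and wild-type cells, and 45.3, 72.3, 80.3, 75.0 and 80.1 FPKM in the same H929 groups. Its low H929 value came with protein and its low OCI value with knockdown 2, and without H929 protein its change with protein was 0.13 in place of -0.43 ± 0.38. PSMB4, with 636, 684, 606, 494 and 565 FPKM in OCI protein, overexpression, knockdown 1, knockdown 2 and wild-type cells, and 546, 466, 425, 582 and 425 FPKM in the same H929 groups, was the core gene that kept or exceeded its wild-type level most often, in 6 of the 8 manipulated libraries.

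PSMB6, whose product has the caspase-like activity, had 73.9, 211, 201, 78.2 and 171 FPKM in OCI protein, overexpression, knockdown 1, knockdown 2 and wild-type cells, and 153, 131, 170.5, 166 and 143 FPKM in the same H929 groups. It was lowest in OCI protein and OCI knockdown 2. The ratio of PSMB9 to PSMB6 was 2.21 in OCI protein, 1.04 in overexpression, 0.836 in knockdown 1 and 2.10 in knockdown 2, against 0.786 in OCI wild type. In H929 it was 0.855 in protein, 0.755 in overexpression, 0.490 in the library labelled knockdown 1 and 0.706 in knockdown 2, against 0.386 in wild type. It was thus above wild type in all 8 libraries, by 1.06 to 2.81 times, with the wild-type libraries shared.

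PSMB8, the inducible counterpart of PSMB5, had 111, 158, 152, 161 and 132 FPKM in OCI protein, overexpression, knockdown 1, knockdown 2 and wild-type cells, and 181, 131, 141, 183 and 121 FPKM in the same H929 groups. PSMB5, the chymotrypsin-like subunit that myeloma drugs bind, had 92.3, 102, 105, 58.9 and 112 FPKM in OCI protein, overexpression, knockdown 1, knockdown 2 and wild-type cells, and 83.8, 71.6, 89.8, 119 and 102 FPKM in the same H929 groups. PSMB5 was lowest in OCI knockdown 2, and PSMB8 was lowest in OCI protein. Their ratio, PSMB8 over PSMB5, was 1.20 in OCI protein, 1.55 in overexpression, 1.45 in knockdown 1 and 2.74 in knockdown 2, against 1.18 in OCI wild type. In H929 the ratio was 2.16 in protein, 1.83 in overexpression, 1.57 in the library labelled knockdown 1 and 1.54 in knockdown 2, against 1.18 in wild type. The ratio in OCI protein was 1.01 times that of wild type.

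PSMB10, the counterpart of PSMB7, had 185, 138, 134, 125 and 134 FPKM in OCI protein, overexpression, knockdown 1, knockdown 2 and wild-type cells, and 152, 100.3, 99.6, 113 and 108 FPKM in the same H929 groups. Protein-treated cells held its highest value in each line, and its change with protein was 0.48 ± 0.21 (SE, limma adjusted p = 0.263). PSMB7, of trypsin-like activity, had 204, 206, 199, 135 and 188 FPKM in OCI protein, overexpression, knockdown 1, knockdown 2 and wild-type cells, and 202, 164, 238, 228 and 244 FPKM in the same H929 groups. PSMB10 over PSMB7 was 0.906 in OCI protein, 0.673 in both overexpression and knockdown 1 and 0.920 in knockdown 2, against 0.712 in OCI wild type. In H929 it was 0.755 in protein, 0.613 in overexpression, 0.419 in the library labelled knockdown 1 and 0.496 in knockdown 2, against 0.443 in wild type. Unlike the other pairs it lay below wild type in 3 of 8 libraries. Summed over the 3 pairs, immunoproteasome genes made up 55.3% of FPKM in OCI protein, 49.9% in overexpression, 47.3% in knockdown 1 and 62.3% in knockdown 2, against 45.9% in OCI wild type. In H929 they made up 51.4% in protein, 47.4% in overexpression, 39.4% in the library labelled knockdown 1 and 44.6% in knockdown 2, against 36.8% in wild type.

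**Figure D4:**
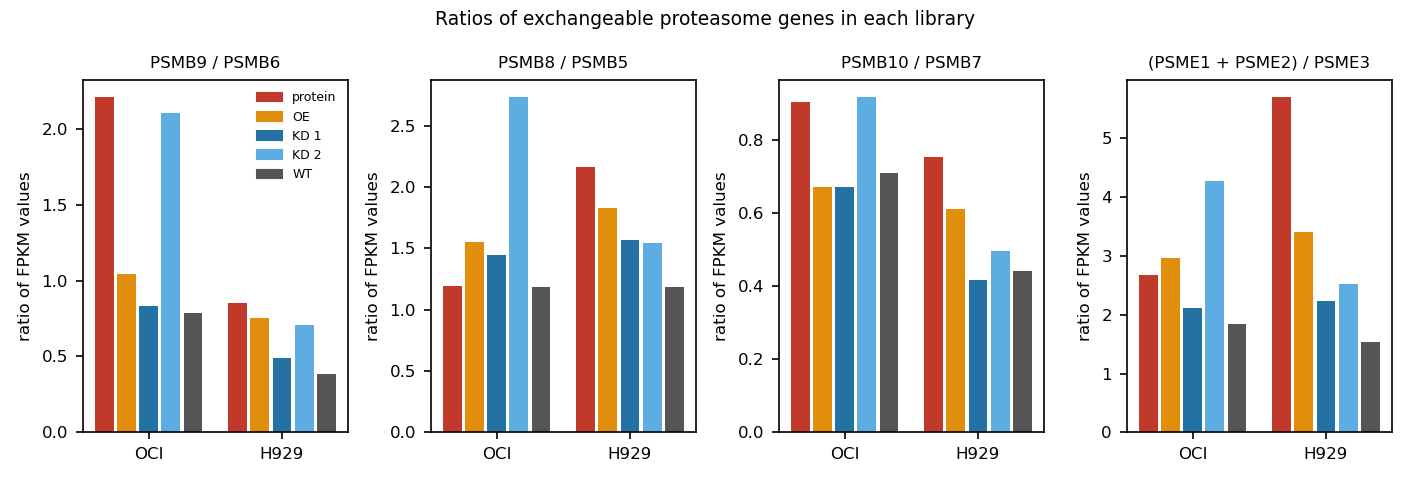
Ratio of FPKM values (y axis) of each inducible catalytic gene to its constitutive counterpart, and of PSME1 plus PSME2 to PSME3, as bars for each library of OCI (left) and H929 (right; OE, overexpression; KD, knockdown). The PSMB9 to PSMB6 ratio is highest in OCI protein at 2.21 and OCI KD 2 at 2.10, and the activator ratio in H929 protein at 5.70.

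PSMB9 was higher than wild type in all 8 manipulated libraries, from 121% in OCI protein to 237% in H929 protein. The changes were 0.75 ± 0.29 with protein (limma adjusted p = 0.209), 0.77 ± 0.29 with overexpression (adjusted p = 0.742) and 0.56 ± 0.25 with knockdown (adjusted p = 0.980). These comparisons share the wild-type libraries, and the H929 wild-type value of PSMB9 was the lowest of all 10. Whether the protein difference of PSMB9 was unlike in the lines was tested and did not pass, at -0.95 ± 0.53 (SE, limma adjusted p = 0.753) for OCI minus H929. That test took its spread from the knockdown libraries, which were unlike each other. PSMB8, PSMB9 and an antisense RNA between them, PSMB8-AS1 with a mean of 30.2 FPKM, overlap in exons in GENCODE 29. Whether strand was used in counting is not given, so that part of the reads of these genes cannot be told apart.

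The activators did not move as 1 group. PSME1, which with PSME2 forms the interferon-inducible PA28 alpha-beta ring, stood at 269 FPKM in protein-treated, 255 in overexpressing, 203 in knockdown 1, 220.4 in knockdown 2 and 193 FPKM in wild-type OCI cells. In H929 it stood at 231 FPKM in protein-treated, 170.0 in overexpressing, 155 in the library labelled knockdown 1, 162 in knockdown 2 and 129 FPKM in wild-type H929 cells. It was above wild type in all 8 libraries, with a change with protein of 0.66 ± 0.22 (SE, limma adjusted p = 0.181). These differences share the wild-type libraries, which held its lowest value in each line. PSME2 had 225, 246, 248, 158 and 236 FPKM in OCI protein, overexpression, knockdown 1, knockdown 2 and wild-type cells, and 186, 240.1, 245, 278 and 224 FPKM in the same H929 groups. It did not follow PSME1, and its change with protein was -0.17 ± 0.29 (SE, limma adjusted p = 0.775), or 0.053 without H929 protein. PSME3, the nuclear PA28 gamma, had 185, 169, 214, 88.6 and 234 FPKM in OCI protein, overexpression, knockdown 1, knockdown 2 and wild-type cells, and 73.1, 121, 179, 175 and 231 FPKM in the same H929 groups. It lay below wild type in all 8 libraries, and its change with protein was -0.99 ± 0.47 (SE, limma adjusted p = 0.286), or -0.30 without H929 protein and -1.68 without OCI protein. These differences too share the wild-type libraries.

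The sum of PSME1 and PSME2 over PSME3 was 2.66 in OCI protein, 2.97 in overexpression, 2.11 in knockdown 1 and 4.28 in knockdown 2, against 1.83 in OCI wild type. In H929 it was 5.70 in protein, 3.40 in overexpression, 2.23 in the library labelled knockdown 1 and 2.52 in knockdown 2, against 1.53 in wild type. The ratio was 1.15 to 3.73 times that of wild type, above it in all 8 libraries, with the wild-type libraries shared. PSME4 had 4.66, 7.15, 11.1, 7.35 and 9.80 FPKM in OCI protein, overexpression, knockdown 1, knockdown 2 and wild-type cells, and 9.69, 13.5, 11.8, 8.16 and 12.1 FPKM in the same H929 groups, with a change with protein of -0.61 ± 0.34 (SE, limma adjusted p = 0.353). PSMF1, which encodes the inhibitor PI31, had 71.2, 56.8, 46.8, 55.8 and 62.6 FPKM in OCI protein, overexpression, knockdown 1, knockdown 2 and wild-type cells, and 76.0, 44.2, 55.3, 59.0 and 56.5 FPKM in the same H929 groups. It was highest in H929 protein and next in OCI protein, at 0.30 ± 0.24 (SE, limma adjusted p = 0.502).

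Of the assembly factors, PSMG1 had the lowest change with protein. PSMG1, a chaperone that with PSMG2 builds the alpha ring, stood at 41.1 FPKM in protein-treated, 59.7 in overexpressing, 76.7 in knockdown 1, 40.3 in knockdown 2 and 82.6 FPKM in wild-type OCI cells. In H929 it stood at 42.9 FPKM in protein-treated, 90.5 in overexpressing, 87.7 in the library labelled knockdown 1, 101 in knockdown 2 and 144 FPKM in wild-type H929 cells. Wild type was the highest of each line, and the change with protein was -1.36 ± 0.32 (SE, limma adjusted p = 0.124). Its partner PSMG2 was at 0.17 ± 0.24 and ranged from 48.1 to 77.7 FPKM. POMP, the factor that joins the half-built cores, had 36.3, 70.3, 83.1, 26.4 and 72.7 FPKM in OCI protein, overexpression, knockdown 1, knockdown 2 and wild-type cells, and 60.2, 72.2, 79.8, 66.0 and 73.5 FPKM in the same H929 groups. It was lowest in OCI knockdown 2 and OCI protein, with a change with protein of -0.63 ± 0.45 (SE, limma adjusted p = 0.459). PSMG3, which acts with PSMG4 on the alpha ring, had 129.9, 90.6, 97.0, 63.3 and 106 FPKM in OCI protein, overexpression, knockdown 1, knockdown 2 and wild-type cells, and 60.8, 61.8, 50.0, 109.8 and 97.8 FPKM in the same H929 groups. Its lowest library was the one labelled H929 knockdown 1. PSMD9, a chaperone of the cap base, had 50.6, 53.7, 53.3, 41.0 and 62.3 FPKM in OCI protein, overexpression, knockdown 1, knockdown 2 and wild-type cells, and 51.2, 35.9, 79.9, 60.1 and 57.3 FPKM in the same H929 groups, with its lowest value in H929 overexpression.

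PSMD5, a further chaperone of the cap base, stood at 6.28 FPKM in protein-treated, 5.25 in overexpressing, 9.42 in knockdown 1, 5.10 in knockdown 2 and 10.9 FPKM in wild-type OCI cells. In H929 it stood at 43.5 FPKM in protein-treated, 6.93 in overexpressing, 9.32 in the library labelled knockdown 1, 6.51 in knockdown 2 and 7.72 FPKM in wild-type H929 cells. The H929 protein library was at 563% of its wild type and OCI protein at 57.6%. The change with protein differed between the lines by -3.06 ± 0.76 (SE, limma adjusted p = 0.700) for OCI minus H929, and it did not pass. The knockdown libraries, the only groups with 2, were unlike each other. AIMP1 was at 98.2% and 24.5% of wild type in those of H929 and at 35.1% and 16.4% in those of OCI. The model of this difference fits group means and takes its spread from these libraries, which are not replicates of 1 state. It called 13 of 12872 genes, 0.101%, and 0 members. At an unadjusted p under 0.05 limma gave 0 members as higher, beside 2.65% of all genes, and 1 as lower, beside 4.33%.

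In cells overexpressing AIMP1, 0 members and 0 of all tested genes (0%) were called. At an unadjusted p under 0.05, limma gave 1 member as higher, PSMB9, beside 3.93% of all genes, and 0 as lower, beside 2.42%, or 7 as lower without OCI knockdown 2. Below wild type in both lines were 33 of 48 members, beside 30.6% of all genes, and above it 7, beside 30.9%. The core and cap median was -0.28, with 27 of 32 below 0, against 0.0051 and 49.3% over all genes. By library, 24 of 32 were below wild type in OCI overexpression, beside 48.7% of all genes, and 28 of 32 in H929 overexpression, beside 49.9%. In OCI these were 17 of 18 cap genes but 7 of 14 core genes. In H929 they were 16 of 18 cap genes and 12 of 14 core genes. The core and cap median of the comparison was -0.46 without OCI overexpression and -0.11 without H929 overexpression. The largest differences in the cap were those of PSMD11 at -0.75 ± 0.41, PSMC4 at -0.64 ± 0.36 and ADRM1 at -0.49 ± 0.32. ADRM1, the ubiquitin receptor of the cap, had 103, 127, 127, 76.5 and 146 FPKM in OCI protein, overexpression, knockdown 1, knockdown 2 and wild-type cells, and 81.8, 80.2, 121, 121 and 139 FPKM in the same H929 groups. PSMD3, a lid subunit at -0.44 ± 0.37, had 122, 163, 161, 80.8 and 196 FPKM in OCI protein, overexpression, knockdown 1, knockdown 2 and wild-type cells, and 109, 123, 179, 177 and 189.9 FPKM in the same H929 groups. The immunoproteasome median was 0.19, or -0.031 without OCI overexpression, and PSMB10 was at -0.03 ± 0.21. The 6 myeloid markers summed to 5.61 to 6.66 FPKM with overexpression, against 2.22 to 3.40 FPKM in wild type. MPO was at 0 in H929 overexpression but not in H929 wild type, and the part of these markers in the result was not tested.

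With AIMP1 knockdown, 0 members and 0 of all tested genes (0%) were called. At an unadjusted p under 0.05, limma gave PSMB9 alone as higher, beside 2.1% of all genes, and 0 members as lower, beside 0.66%, or 4 as lower without OCI knockdown 1. Below wild type in all 4 libraries were 12 of 48 members, beside 14.3% of all genes, and above it 3, beside 13.6%. The core and cap median was -0.32, with 29 of 32 below 0, against 0.0079 and 49% over all genes, and the immunoproteasome median was 0.33. AIMP1 mRNA was at 98.2% of wild type in 1 of the 4 libraries, the one labelled H929 knockdown 1. Without that library the core and cap median was -0.34 and the immunoproteasome median 0.41, and 0 genes were called. The knockdown libraries were unlike each other. In OCI knockdown 2 all 32 core and cap genes were below wild type, beside 47.6% of all genes, with a median of -0.91. In OCI knockdown 1, 20 of 32 were below, beside 52.2%, with a median of -0.06. There cap and core parted, with 17 of 18 cap genes below wild type at a median of -0.16. Only 3 of 14 core genes were below it, at a median of 0.09. Of the OCI knockdown libraries, the second thus held the lower group median. In H929 knockdown 2, 25 of 32 were below, beside 48.3%, with a median of -0.15. In the library labelled H929 knockdown 1, 21 of 32 were below, beside 49.5%, with a median of -0.07. Without OCI knockdown 2 the core and cap median of the comparison was -0.09. AIMP1 mRNA was at 16.4% of wild type in OCI knockdown 2, at 35.1% in OCI knockdown 1 and at 24.5% in H929 knockdown 2. The 6 stromal and endothelial markers summed to 1.35 to 3.93 FPKM in knockdown libraries, against 0.187 to 0.668 FPKM in wild type, and the 6 T and NK cell markers to 0.0922 to 19.3 FPKM, against 0.452 to 1.45 FPKM. The part of these markers in the result was not tested. The fitted changes of PSMD11, PSMA3, PSMD1 and PSMG1 were -0.72 ± 0.36, -0.62 ± 0.35, -0.61 ± 0.36 and -0.58 ± 0.28, each below wild type in 4 of 4 libraries.

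OCI knockdown 2 also bears on the comparison with protein. It enters the shared estimate of the spread. When it was left out, 442 of 12872 genes, 126 of them lower, and 3 of 48 members were called with protein. The members were PSMG1 (limma adjusted p = 0.0300), PSMD11 (adjusted p = 0.0415) and PSMD1 (adjusted p = 0.0425), all lower. IRF1 (adjusted p = 0.0258), TAPBP (adjusted p = 0.0425) and VCP (adjusted p = 0.0306) passed there too. In each of the other alternatives run, 0 members were called with protein. Relative depth was 57.8% in OCI knockdown 2 and 72.7% in OCI knockdown 1, and its part was not tested.

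Among 9 genes of immunoproteasome control and class I peptide supply, 0 were called with protein, beside 0.0155% of all tested genes. At limma's unadjusted p under 0.05, 4 were higher, beside 13.2%, and 1 was lower, beside 5.79%. The lower 1 was TAP2, the partner of TAP1 in the peptide transporter, at -0.76 ± 0.30 (SE, limma adjusted p = 0.223). It had 32.7 FPKM in OCI protein, against 58.4 FPKM in OCI wild type, and 22.0 FPKM in H929 protein, against 36.3 FPKM in H929 wild type. ERAP1, which trims peptides in the ER, was also below 0, at -0.46 ± 0.28 (SE, limma adjusted p = 0.395). IRF1, the transcription factor that raises PSMB8, PSMB9 and PSMB10 after interferon, had 75.7, 37.4, 43.3, 63.0 and 24.5 FPKM in OCI protein, overexpression, knockdown 1, knockdown 2 and wild-type cells, and 129, 43.9, 40.0, 49.3 and 34.4 FPKM in the same H929 groups. Protein-treated cells were highest in each line, at 1.73 ± 0.32 (SE, limma adjusted p = 0.108). TAP1, the peptide transporter gene that shares its promoter region with PSMB9, had 89.0, 57.5, 41.5, 65.9 and 42.8 FPKM in OCI protein, overexpression, knockdown 1, knockdown 2 and wild-type cells, and 67.8, 35.7, 32.3, 49.3 and 32.8 FPKM in the same H929 groups, with a change of 1.03 ± 0.30 (SE, limma adjusted p = 0.151). TAPBP, which loads peptide on class I molecules, was at 1.36 ± 0.29 (SE, limma adjusted p = 0.108), and B2M, the class I light chain, at 0.82 ± 0.34 (SE, limma adjusted p = 0.233). NLRC5, a transactivator of class I genes, was higher in H929 protein at 22.1 FPKM against 19.7 FPKM in its wild type, and lower in OCI protein at 9.70 FPKM against 10.5 FPKM.

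Of 8 genes that make or process NFE2L1, the factor that raises proteasome genes when degradation is blocked, 0 were called with protein and 1 between the lines, beside 12.9% of all tested genes. With protein the median of the 8 was 0.42, and 3 of 8 were below 0, beside 41.3% of all tested genes. NFE2L1 had 121, 32.9, 32.9, 73.4 and 33.9 FPKM in OCI protein, overexpression, knockdown 1, knockdown 2 and wild-type cells, and 40.8, 32.6, 35.8, 37.9 and 46.1 FPKM in the same H929 groups. OCI protein and OCI knockdown 2, the libraries with the lowest core and cap medians, were its highest, while in H929 wild type was highest. NFE2L1 was named after its values were seen, and a link between it and the core and cap medians was not tested. VCP, the unfoldase that pulls NFE2L1 from the ER membrane, had 35.2, 66.6, 84.4, 39.0 and 109 FPKM in OCI protein, overexpression, knockdown 1, knockdown 2 and wild-type cells, and 62.9, 75.2, 105, 92.8 and 128 FPKM in the same H929 groups, with a change of -1.31 ± 0.35 (SE, limma adjusted p = 0.141). DDI2, the protease that cuts NFE2L1, was at -0.92 ± 0.33 (SE, limma adjusted p = 0.196), and FBXW7, a ubiquitin ligase subunit that acts on it, at 0.85 ± 0.27 (SE, limma adjusted p = 0.167). SYVN1, also of these 8 genes, was at 0.58 ± 0.28 (SE, limma adjusted p = 0.292). NGLY1, which removes the sugar chains of NFE2L1, was called between the lines, at -0.77 ± 0.22 (SE, limma adjusted p = 0.0497), with 15.8 ± 3.01 FPKM in OCI and 28.4 ± 9.26 FPKM in H929 (SD, n = 5 each).

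Of 11 proteasome-bound or regulating factors, 0 were called with protein and 2 between the lines, beside the same 12.9% of all tested genes. UCHL5, a deubiquitinase that ADRM1 holds at the cap, had 4.14, 9.95, 13.2, 5.01 and 13.0 FPKM in OCI protein, overexpression, knockdown 1, knockdown 2 and wild-type cells, and 13.9, 20.5, 19.1, 13.8 and 17.4 FPKM in the same H929 groups. It was lower in OCI, at -0.94 ± 0.27 (SE, limma adjusted p = 0.0443). UBE3C, a ubiquitin ligase of the cap, had 17.7, 20.4, 29.3, 15.6 and 33.4 FPKM in OCI protein, overexpression, knockdown 1, knockdown 2 and wild-type cells, and 21.4, 38.0, 39.4, 45.9 and 48.1 FPKM in the same H929 groups. It too was lower in OCI, at -0.71 ± 0.21 (SE, limma adjusted p = 0.0499). With protein the median of the 11 was -0.53, and 7 of 11 were below 0, beside 41.3% of all tested genes. Among these were UBE3C at -1.01 ± 0.33 (SE, limma adjusted p = 0.174) and UCHL5 at -0.87 ± 0.42 (SE, limma adjusted p = 0.290). Of the higher ones, ZFAND2A was at 1.36 ± 0.52 (SE, limma adjusted p = 0.212). AKIRIN2, which carries proteasomes into the nucleus, was at 1.05 ± 0.30 (SE, limma adjusted p = 0.152) with protein and reached 67.7 FPKM in OCI protein, against 22.4 FPKM in OCI wild type. Among 6 tested shuttle factors, 1 was called between the lines, beside 12.9% of all tested genes. It was SQSTM1, the autophagy receptor p62, at 0.71 ± 0.17 (SE, limma adjusted p = 0.0237). With protein 0 of the 6 were called, their median was -0.36, and 4 of 6 were below 0, among them RAD23B at -0.66 ± 0.28 (SE, limma adjusted p = 0.237). SQSTM1 stood on the other side, at 1.13 ± 0.27 (SE, limma adjusted p = 0.124). These calls between the lines held in 6 of 18 alternatives for UCHL5, 3 for UBE3C, 5 for NGLY1 and 11 for SQSTM1. DDI1, a further shuttle factor, was listed at 0 in all libraries. The subunit SEM1 of the lid, which is outside the 48, was at 0.16 ± 0.29 with protein, and PSMA8 and PSMB11, subunits of testis and thymus proteasomes, reached at most 1.17 and 0.0261 FPKM.

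Exons of 24 members overlap those of another gene in GENCODE 29, 20 of them on the opposite strand, and in 11 cases the overlapping gene exceeded 10% of the member's FPKM in some library. PSME4 and its neighbour ACYP2 are the extreme, at 12.1 FPKM of ACYP2 in OCI protein against 4.66 FPKM of PSME4. The pseudogene copies of any 1 member summed to at most 2.65 FPKM.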

How the data were processed

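Poly(A) RNA libraries were sequenced in pairs of reads, per the labels' protocols. The authors deposited 1 table of FPKM values for 10 libraries, and per the submitters' processing notes the tools were Bowtie 0.12.2, HISAT2 2.0 and StringTie 1.3.0, listed without roles. The notes name a mouse build although the identifiers are human, so no coordinates were taken from the table. The use of strand and the annotation are not stated, and the depth in reads is unknown; relative depth was estimated from the smallest values of genes averaging under 0.1 FPKM. Of the 58229 identifiers, 57518 matched a name.

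Values became log2(FPKM + 1), a scale that understates changes of low genes. The test took genes whose mean reached 1 FPKM, and was run with limma 3.58.1 in R 4.3.3, in 1 additive model of line and manipulation with trended variances and Benjamini-Hochberg adjustment at 0.05 over all 12872 genes. The test of whether a change differed between the lines used 8 group means. The procedure was run on simulated data with independent noise and no line effect. Those data lack the unlike changes of the lines and the unlike knockdown libraries, so they do not show how it performs here. All comparisons with wild type share its 2 libraries. Genes are named where they passed the threshold, belong to a catalytic pair or activator, or had the largest change of their role class with 1 sign in all libraries. Other genes, such as NFE2L1, PSMG2, PSMD12, NLRC5 and ERAP1, were named after their values were seen. The members and lists were chosen with earlier results of these data known, and 1 list is not reported here. Alternatives changed the pseudocount, filter, scaling, variance trend, model, knockdown number and libraries.

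The knockdown numbers are shared by the lines, but the deviations of same-numbered libraries correlated at 0.08 over 12872 genes, so the numbers were not used to pair samples.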

Additional observations from a re-analysis of the deposited data

Results flagged for a closer look

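In 11 of 96 sets of 5 libraries (1 gene in 1 line), the highest or lowest library stood apart from the others, with a gap of more than 0.71 of the range. That is 11.5% of the sets, against 10.7% of the 25631 such sets over all tested genes. About 5% would be given by chance in libraries of 1 kind, and the 5 libraries of a line here received different manipulations. Of these, 4 fell on H929 protein and 2 on OCI protein. PSMD5 was at 43.5 FPKM in H929 protein, against 6.51 to 9.32 FPKM in the other H929 libraries. PSMB10 was high in protein libraries of both lines, at 184.9 FPKM in OCI protein, against 125 to 138 FPKM in the other OCI libraries, and at 152 FPKM in H929 protein, against 99.6 to 113 FPKM. PSMG4, a chaperone of the alpha ring, stood apart in opposite directions, at 42.7 FPKM in OCI protein, against 31.1 to 32.9 FPKM, and at 22.9 FPKM in H929 protein, against 30.5 to 31.7 FPKM. PSMB2 was low in H929 protein, at 45.3 FPKM, against 72.3 to 80.3 FPKM. OCI knockdown 2 was low for PSMB7, at 135 FPKM against 188 to 206 FPKM, and for PSME2, at 158 FPKM against 225 to 248 FPKM. PSMB3 was low in H929 overexpression, at 394 FPKM against 534 to 565 FPKM. PSMD7 was low in H929 knockdown 2, at 106 FPKM against 118 to 120.2 FPKM. PSMC2 was high in H929 wild type, at 159.5 FPKM, against 125 to 133 FPKM in the other H929 libraries.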

How the results depend on the processing

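With protein, 14 genes were called with no filter on low values, 4 with a filter at 5 FPKM, 1 after median centring, 0 after quantile normalization, 0 with no term for the line, 12 with 8 group means and 7 with the replicate block, and 0 to 442 when 1 library was left out. With overexpression the counts were 17 with no filter, 1 with the filter at 5 FPKM, 1 after quantile normalization and 1 with the block, and 0 to 5. With knockdown they were 11 with no filter, 3 with 8 group means, and 0 to 6. Between OCI and H929 they were 1063 with no filter, 844 with 8 group means, and 787 to 1657. Members called between the lines numbered 1 after median centring, 1 without a trend, 0 with 8 group means, 4 with the replicate block and 0 to 4 when 1 library was left out, and those called with protein 0 to 3. For the difference of the protein change between lines, settings chosen after seeing the data gave 7 genes at a pseudocount of 0.1, 1425 with no filter and 0 when any single knockdown library was left out.

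Core and cap medians ranged, leaving out 1 library, from -0.62 to -0.35 with protein, -0.46 to -0.11 with overexpression, -0.43 to -0.09 with knockdown and -0.32 to -0.05 between the lines. Immunoproteasome medians ranged from 0.42 to 0.56, -0.031 to 0.41, 0.20 to 0.45 and 0.29 to 0.36 in the same comparisons. Quantile normalization gave immunoproteasome medians of 0.24 with protein, 0.31 with overexpression and 0.19 between the lines, and core and cap medians of -0.72, -0.19 and -0.37. Of 2685 alternative values of 144 fitted changes of named genes, 12 changed sign. When 1 library was left out, 20 of 44 such changes with protein, 24 of 40 with overexpression, 23 of 26 with knockdown and 10 of 32 between the lines moved by over 1.5 times or changed sign. Leaving out 1 library, PSMB2 with protein ranged from -0.98 to 0.13 and PSME2 from -0.39 to 0.053, highest without H929 protein, and AIMP1 from -0.048 without H929 wild type to 0.51. With overexpression PSMB5 ranged from -0.63 to 0.0023, highest without H929 overexpression. PSMD5 ranged from -1.16 to 0.096 without OCI wild type, PSME2 from -0.019 without H929 wild type to 0.17, PSMB8 from -0.031 without OCI overexpression to 0.41, and PSMB10 from -0.12 to 0.056 without H929 overexpression. Between the lines PSMB8 ranged from -0.17 to 0.079, highest without either protein library. After quantile normalization PSMB4 with protein was at -0.094 and PSMB10 with overexpression at 0.081. The cause was not tested. With 1 library in most groups, the spread rests on the additive model, and a lone sample is assumed to vary like the others.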
